A study of Mus musculus with 12 samples.

Results

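The transcripts described here are those assigned to repeat names that begin with tRNA, the genomic copies of transfer RNA genes and of sequences derived from them. All rows of the repeat table with such a name were taken, which gave 58 of 1528 names, and they were grouped by the amino acid in the name into 21 classes, selenocysteine (SeC) included. Every sample was testis of *Mael*-/- C57BL/6 mice of 3 months, animals that lack MAEL, a germ cell factor needed to keep transposons silent. The extract before fractionation (TOTAL), a pool of sucrose gradient fractions 5 to 8 (INPUT), the RNA bound by an antibody to L1 ORF1p on beads (IP) and the RNA bound by beads without antibody (BO) were sequenced as 3 libraries each, 12 in all. EDTA at 10 mM, which takes ribosomes apart, was added to the extracts before the gradient. All 4 groups, TOTAL included, were taken to share it. INPUT, BO and IP all come from the gradient pool, and only TOTAL holds RNA of the other fractions. The samples used here hold no animal with intact *Mael* and no antibody of another specificity, and the labels do not say whether libraries with the same number came from the same animals, so the p-values below measure the spread between these libraries, which may be technical.

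Transfer RNAs are short, folded RNAs that carry amino acids to the ribosome and read codons through their anticodon. Nuclear tRNA genes are transcribed by RNA polymerase III from promoter elements within the gene, while mitochondria transcribe a set of their own, and both kinds have left many copies across the mouse genome. ORF1p is the RNA-binding protein of the L1 retrotransposon, which assembles on L1 RNA into the ribonucleoprotein particle that moves the element.

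The names give a codon, with Y for C or T, and the mark (m) was read here as a mitochondrial type of tRNA. The sequence of 1 annotated gene is shown, the nuclear alanine tRNA gene n-TAagc16 at chr13:21222586-21222657 on the plus strand of GRCm38 (mm10), because its anticodon reads a codon of tRNA-Ala-GCY_, a name on which the results turn. It is given 5′ to 3′ with the anticodon in capitals, from a RefSeq promoter window that spans the gene.
n-TAagc16: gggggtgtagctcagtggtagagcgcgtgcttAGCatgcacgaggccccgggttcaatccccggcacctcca

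The gene is 72 bases long, close to the length of a single sequencing read, and its GC content is 65.3%. The table sums all copies of a name, so it does not give which copies, whole genes or fragments, nuclear or mitochondrial, the reads came from.

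The deposited values are normalized counts, scaled by the authors to the same 75th percentile (484) in every library. Reads on repeat names numbered 1384904 to 7282171 per library, and the value of 1 read was 0.619 to 1.6 normalized counts. Tests were run on the 1180 names whose mean across all 12 libraries reached 10, of which 15 were tRNA names. The other 43 tRNA names had means of 0.0817 to 9.98 and were not tested. The names nearest to that limit were tRNA-His-CAY_ (9.98), tRNA-Leu-TTG (9.47) and tRNA-Cys-TGY (8.83) outside it, and tRNA-Gly-GGY (11.6) and tRNA-Gln-CAA_ (12.7) inside it. A name was called changed at a limma log2 fold change past 1 in either direction with an adjusted p under 0.05 over all 1180 names.

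Some libraries differed from others of their group before any comparison of tRNA names. In BO 3, 52.1% of reads lay on the large ribosomal RNA (LSU-rRNA) names, against 3.18% and 3.25% in the other BO libraries. The name of 7SL RNA, the RNA of the signal recognition particle, took 38.1% to 51.6% of reads in TOTAL, 17% to 18.7% in INPUT and at most 1.63% in BO and IP. In the gene tables, for which only the authors' group means were used, 5 spermatocyte genes had TOTAL means of 143.4 (*Piwil1*) to 9433 (*Sycp1*), whereas the spermatid genes *Prm1*, *Tnp1* and *Acrv1* had 22, 30.1 and 11.7. The Leydig cell genes *Cyp11a1*, *Star* and *Insl3* had 17634, 14852 and 1744. From TOTAL to IP, the median log2 ratio was 2.33 for the spermatocyte genes, -2.56 for the Leydig cell genes and -1.22 for 3 Sertoli cell genes, and the part of cell types in the tRNA values was not tested. *Mael* itself had an authors' mean of 0.65 in TOTAL and 0 in IP.

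A single name, tRNA-Ser-TCA(m), held most of the tRNA reads of TOTAL and none of those of IP. Its normalized counts were 43656, 21719 and 22273 in TOTAL (70561, 19789 and 20938 reads), 7749, 2792 and 0 in INPUT, 7515, 4224 and 1.6 in BO, and 0, 0 and 0 in IP. It therefore made up 94% to 95.2% of tRNA reads in TOTAL, where it was the 18th most abundant of the tested names, and it was the one tested name at 0 in every IP library. INPUT 3 and BO 3 also lacked it or nearly so, with 0 reads and 1 read, although the other INPUT and BO libraries held 3247 to 12058 reads.

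IP lay below all 3 TOTAL libraries and below all 3 BO libraries for tRNA-Ser-TCA(m), and it overlapped INPUT through INPUT 3. A count of 0 in IP allows up to 3 reads per library, a mean of 3.73 normalized counts, so the name was at least 7840-fold lower in IP than in TOTAL, at least 1050-fold lower than in BO and at least 942.8-fold lower than in INPUT. Without BO 1 the bound against BO was 567.0-fold and without INPUT 1 that against INPUT was 374.6-fold. These bounds cover counting error only and rest on group means. In limma the difference from TOTAL was called (log2 fold change -14.75, SE 3.20, adjusted p = 0.00644, n = 3 against 3). The differences from BO (-8.77, SE 3.20, adjusted p = 0.0522) and from INPUT (-8.12, SE 3.20, adjusted p = 0.0799) were not. With BO 3 left out, the difference from BO was called, at -12.46, and with INPUT 3 left out the difference from INPUT was called, at -12.18. Without BO 1 the difference from BO was -6.71 (adjusted p = 0.184) and without BO 2 -7.13 (0.169), and without INPUT 1 the difference from INPUT was -5.72 (0.256). Of 12 limma fits that left out 1 library each, 3 called the difference from BO and 2 that from INPUT. Of 10 other alternatives, 7 called the difference from BO (adjusted p of 3.76e-05 to 0.0718, not called with a pseudocount of 10, no filter or the median ratio) and 3 that from INPUT (2.59e-04 to 0.096, called with the library total, the replicate block and edgeR). INPUT was below TOTAL in all libraries as well, with a log2 fold change of -6.63 (SE 3.20, adjusted p = 0.326), which was -2.57 (adjusted p = 0.753) without INPUT 3 and -9.03 without INPUT 1, neither of them called. Of the other alternatives, 1 of 10 called it, the scaling by library total (adjusted p = 0.00527).

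**Figure D1:**
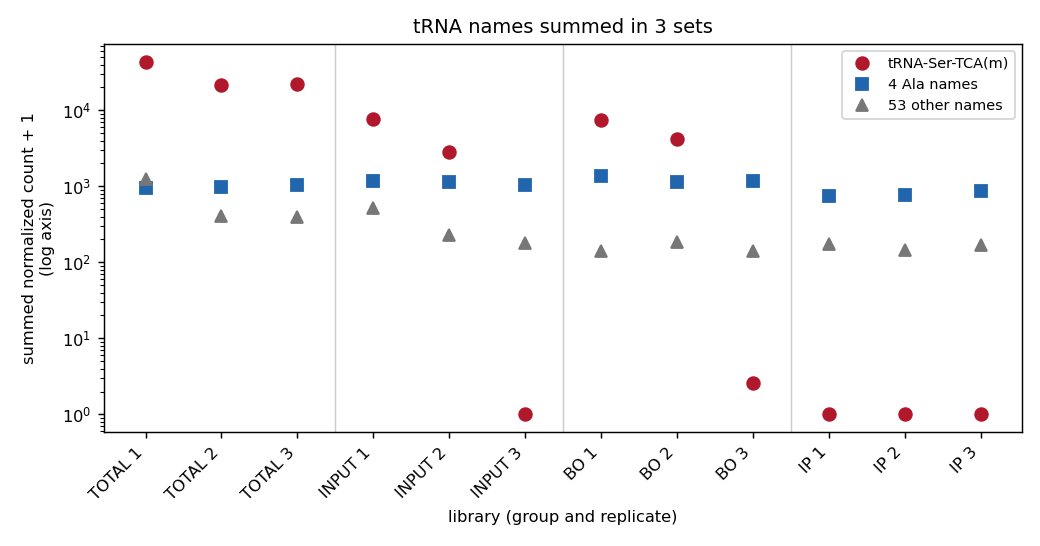
Summed normalized counts plus 1 (vertical log axis) in each of the 12 libraries for tRNA-Ser-TCA(m) (circles), the 4 alanine names (squares) and the 53 other tRNA names (triangles). tRNA-Ser-TCA(m) spans 43656 in TOTAL 1 to 0 in INPUT 3 and in all IP libraries, while the alanine names stay between 753.1 and 1377.

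The other name with the (m) mark, tRNA-Leu-TTA(m), was also lowest in IP. It had 243.2, 32.9 and 34 in TOTAL, 47.9, 4.08 and 6.8 in INPUT, 8.1, 24.7 and 8.02 in BO and 4.41, 2.56 and 0.98 in IP. All IP libraries, with 6 reads in all, were below every TOTAL and every BO library, and they overlapped INPUT. The decrease from TOTAL was called by limma (log2 fold change -4.30, SE 0.92, adjusted p = 0.0061), and without TOTAL 1 it was -3.36 and still called. The differences from BO (-1.93, SE 0.92, adjusted p = 0.128) and from INPUT (-1.89, SE 0.92, adjusted p = 0.153) did not pass, though limma on the BO and IP libraries alone called the former (adjusted p = 0.048, and 0.048 to 0.369 over all alternatives).

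Apart from tRNA-Ser-TCA(m), alanine names held most tRNA reads in every library other than TOTAL 1. The 4 alanine names summed to 954.0, 973.5 and 1025 in TOTAL, to 1164, 1124 and 1026 in INPUT, to 1377, 1128 and 1169 in BO, and to 753.1, 763.1 and 874.9 in IP. Their share of tRNA reads other than tRNA-Ser-TCA(m) was 62% ± 16.4 in TOTAL, 79.3% ± 8.52 in INPUT, 88.6% ± 2.39 in BO and 83.1% ± 1.56 in IP (mean ± SD, n = 3). The share in TOTAL 1 was 43%, and without that library TOTAL lay at 70.8% and 72.1%.

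The tRNAs of alanine read codons that begin with GC, and 3 of their names were tested. tRNA-Ala-GCY_ had 696.6, 711.2 and 786.1 in TOTAL, 839.9, 852.2 and 783.8 in INPUT, 1143, 934.1 and 957.3 in BO, and 601.6, 572.3 and 691.6 in IP. The IP libraries were lowest, without overlap with any other group, and the BO libraries highest. Relative to BO the limma log2 fold change of IP was -0.70 (SE 0.10, adjusted p = 2.18e-04) and relative to INPUT -0.41 (SE 0.10, adjusted p = 0.00896), both short of the size a call required, and relative to TOTAL it was -0.24 (SE 0.10, adjusted p = 0.111). The BO libraries exceeded INPUT by 0.29 (SE 0.10, adjusted p = 0.0469).

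tRNA-Ala-GCA, a name picked for mention after its values were seen, had 183.8, 212.9 and 197.9 in TOTAL, 261.2, 204.9 and 192.0 in INPUT, 188.2, 148.3 and 176.4 in BO, and 125.0, 163.9 and 141.4 in IP. IP was below all INPUT and all TOTAL libraries and overlapped BO, with limma log2 fold changes of -0.61 against INPUT (SE 0.15, adjusted p = 0.00999) and -0.47 against TOTAL (SE 0.15, adjusted p = 0.0408). tRNA-Ala-GCG, the least abundant of the tested alanine names, had 58.2, 42.8 and 31.9 in TOTAL, 55.4, 63.7 and 49.9 in INPUT, 43.6, 42.9 and 33.7 in BO, and 19.1, 25.6 and 37.1 in IP. It was the alanine name that was called, as lower in IP than in INPUT (limma log2 fold change -1.06, SE 0.27, adjusted p = 0.0131), and the call was lost without INPUT 2 (-0.97) or without IP 1 (-0.84). It was also lost with a pseudocount of 10 (-0.85), the median ratio (-0.99), the total without 7SL RNA and rRNA names (-0.93), edgeR (-0.97) and the library total (-0.54, adjusted p = 0.368). These decreases are relative to the deposited scaling: with libraries scaled to their totals, IP was above TOTAL for tRNA-Ala-GCY_ (1.31), tRNA-Ala-GCA (1.07) and tRNA-Ala-GCG (0.81), and above INPUT for tRNA-Ala-GCY_ (0.13). With that scaling, IP differed from BO by -0.20 for tRNA-Ala-GCY_ (limma adjusted p = 0.726). It differed from INPUT by -0.06 for tRNA-Ala-GCA (limma adjusted p = 0.895).

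The serine names other than tRNA-Ser-TCA(m) gave the one call of a tRNA name that was higher in IP than on beads alone. tRNA-Ser-TCY, a nuclear serine type, had 24.8, 23.1 and 26.6 in TOTAL, 23.5, 14.7 and 13.6 in INPUT, 2.49, 3.9 and 3.21 in BO, and 16.2, 12.8 and 10.7 in IP. Every BO library was below every library of the other groups, and IP overlapped INPUT and lay below TOTAL. The values rest on 9 reads in BO and 32 in IP. In limma, tRNA-Ser-TCY was higher in IP than in BO (log2 fold change 1.76, SE 0.33, adjusted p = 0.00147), which with a pseudocount of 10 was 0.81 and not called, and lower in BO than in INPUT (-2.09, SE 0.33, adjusted p = 7.46e-04). Against INPUT the difference of IP was -0.34 (SE 0.33, adjusted p = 0.496).

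tRNA-Ser-TCG, which belongs to the same codon box, had 72.4, 31.8 and 35.1 in TOTAL, 34.8, 20.4 and 15.1 in INPUT, 1.87, 0 and 1.6 in BO, and 2.94, 2.56 and 6.83 in IP. The groups were ordered TOTAL, INPUT, IP and BO by their means, with overlap between TOTAL and INPUT and none between any other pair of neighbours. limma called it lower in IP than in INPUT (log2 fold change -2.27, SE 0.55, adjusted p = 0.00925, but 0.0764 with a pseudocount of 0.1), lower in IP than in TOTAL (-3.21, SE 0.55, adjusted p = 0.00153) and lower in BO than in INPUT (-3.56, SE 0.55, adjusted p = 6.47e-04). Its mean over the 9 libraries outside TOTAL was 9.57, so it was tested only through TOTAL, and its lower level in IP than in TOTAL was in part set by the filter. Relative to BO, IP was above without overlap, at 1.29 (SE 0.55, adjusted p = 0.0885), on 11 reads against 4.

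A pair of further names was called as lower in IP than in TOTAL, each on 1 read in IP. Both reached the mean of 10 needed for a test only through TOTAL: over the 9 libraries outside TOTAL their means were 3.13 (tRNA-Gln-CAA_) and 2.11 (tRNA-SeC(e)-TGA), so a lower level in IP than in TOTAL was in part set by that filter. tRNA-Gln-CAA_, a glutamine type, had 86, 14.3 and 23.4 in TOTAL, 17.9, 4.9 and 2.27 in INPUT, 1.87, 0 and 0 in BO, and 0, 1.28 and 0 in IP. Its ratio of TOTAL to IP, from reads under the deposited scaling and not by library total, was 124.8 (95% counting interval 22.1 to 4956). Without TOTAL 1, which held 139 of its 174 TOTAL reads, the ratio was 47 (7.9 to 1909). The limma log2 fold change was -4.60 (SE 0.86, adjusted p = 0.00266), and -3.62 with libraries scaled to their totals. tRNA-SeC(e)-TGA, of the selenocysteine tRNA that reads a stop codon, had 185.6, 3.29 and 12.8 in TOTAL, 13.2, 3.27 and 0 in INPUT, 1.25, 0 and 0 in BO, and 0, 1.28 and 0 in IP. TOTAL 1 held most of its reads. Under the deposited scaling the ratio of TOTAL to IP was 225.9 (40.2 to 8949), or 20.1 (3.1 to 848.1) without TOTAL 1. The limma log2 fold change was -4.08 (SE 1.30, adjusted p = 0.0413), and it was -2.55 and no longer called without TOTAL 1. That call held in 4 of the 12 fits that left out 1 library each, and it was lost with a pseudocount of 0.1 or 10 and with the compared groups fitted alone (adjusted p of 0.00685 to 0.158 over all alternatives).

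**Figure D2:**
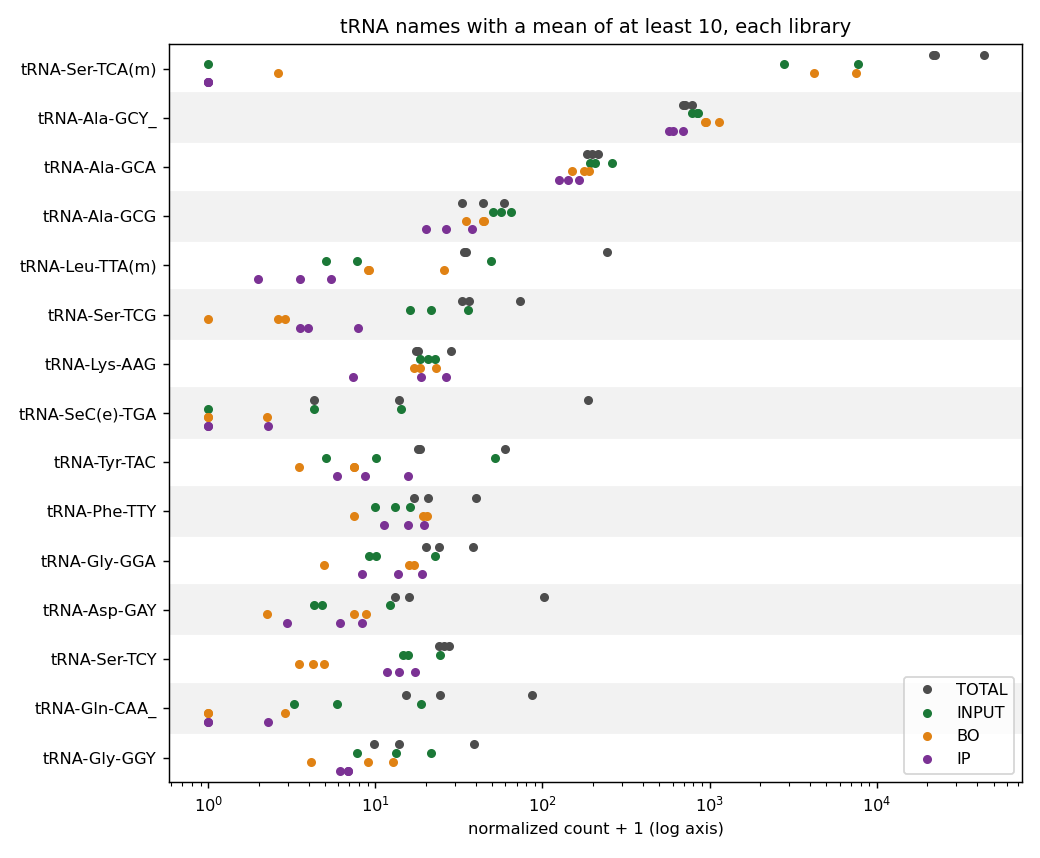
Normalized count plus 1 (horizontal log axis) of the 15 tested tRNA names in each library, 3 points per group, with names in order of their mean. The IP points lie left of all TOTAL points for 12 names, and the TOTAL point farthest right is TOTAL 1 for 11 names.

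The tested names of aspartate, tyrosine, glycine, lysine and phenylalanine tRNAs were not called by limma in any comparison. tRNA-Asp-GAY had 100.8, 12.1 and 14.9 in TOTAL and 7.35, 5.12 and 1.95 in IP. The limma log2 fold change was -2.38 (SE 0.83, adjusted p = 0.0584), and -2.92 to -1.44 over fits that left out 1 library each. edgeR on the recovered reads called this difference, at -3.22 (adjusted p = 0.0314), with adjusted p of 0.0314 to 0.221 over all alternatives. This name too was tested only through TOTAL (mean of 5.36 over the other 9 libraries), so the filter in part set that difference. tRNA-Tyr-TAC had 58.8, 17.6 and 17 in TOTAL and 14.7, 7.68 and 4.88 in IP, and tRNA-Gly-GGA had 22.9, 37.3 and 19.2 against 7.35, 17.9 and 12.7. Both were below TOTAL without overlap, at adjusted p = 0.19 and 0.211. tRNA-Lys-AAG (27.2, 16.5 and 17 in TOTAL, 17.6, 6.4 and 25.4 in IP) and tRNA-Phe-TTY (39, 19.8 and 16 in TOTAL, 14.7, 10.2 and 18.5 in IP) overlapped between those groups.

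Over the 15 tested names, 5 were called lower in IP than in TOTAL and 0 higher, where 3.47% of all tested names were called lower and 2.88% higher. Every IP library was below every TOTAL library for 12 of the 15, against 22% of all names, and the log2 fold change was below 0 for 15 of 15, with a median of -1.39 beside -0.05 over all names. These counts are a description and not support for a lower level in IP, because 5 of the 15 (tRNA-Ser-TCG, tRNA-SeC(e)-TGA, tRNA-Asp-GAY, tRNA-Gln-CAA_ and tRNA-Gly-GGY) had a mean under 10 over the 9 libraries outside TOTAL and were tested only because TOTAL was high. Of the other 10, 2 were called lower, 7 had no overlap and the median was -0.78. Scaled to the library total, 8 of 15 were below 0 (median -0.02, all names 1.49), and scaled to the total without 7SL RNA and rRNA names 12 of 15 were (median -0.94, all names 0.45). A scaling moves most names by a similar amount, so the gap between the medians under another scaling is no separate evidence. With the library total, the sign turned for 7 names, which were the tested alanine names, tRNA-Lys-AAG (1.01), tRNA-Phe-TTY (0.78), tRNA-Ser-TCY (0.59) and tRNA-Gly-GGA (0.43).

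Against INPUT, 2 of the 15 were called lower in IP and 0 higher, with 2.88% and 3.22% of all names called, and the median log2 fold change was -0.61 beside -0.06. The IP libraries were below all INPUT libraries for 6 names (26.4% of all names) and above all of them for 0 (17.4%). Against BO, 1 was called higher and 0 lower, with 5.08% and 3.81% of all names called, and the medians were -0.11 and -0.12. The IP libraries were above all BO libraries for 2 names (16.5% of all names) and below all of them for 3 (30.5%). By number of calls and by median, the tRNA names were thus close to all names in the comparison of IP with BO.

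The background comparisons gave the following counts. For INPUT against TOTAL, limma called 0 of the 15 tRNA names in either direction (0.339% of all names were called lower and 0% higher). An unadjusted limma p under 0.05 was reached by 3, all lower in INPUT. The share of all names at that limit is not given, so this count is not read as a result. edgeR called 0 tRNA names too, beside 6 lower and 0 higher of 1180 names. For BO against INPUT, 2 were called lower, tRNA-Ser-TCG and tRNA-Ser-TCY, and 0 higher, beside 2.8% and 2.63% of all names. The comparisons with IP share its 3 libraries, so they are not independent of each other.

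**Figure D3:**
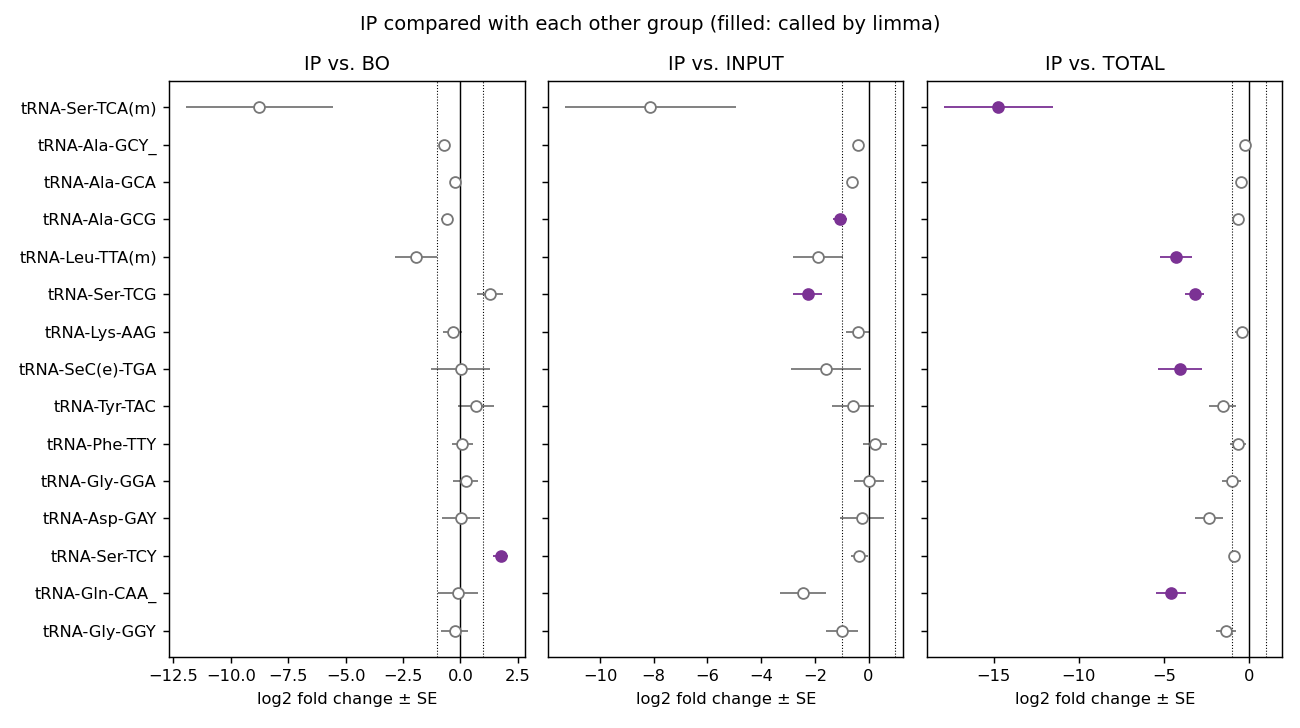
limma log2 fold change of IP against BO, INPUT and TOTAL (horizontal axes, 1 panel each, with separate ranges) for the 15 tested tRNA names, with bars for the SE, filled points for called names and dotted lines at -1 and 1. The filled points are 1 name above 0 against BO, 2 below 0 against INPUT and 5 below 0 against TOTAL.

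**Figure D4:**
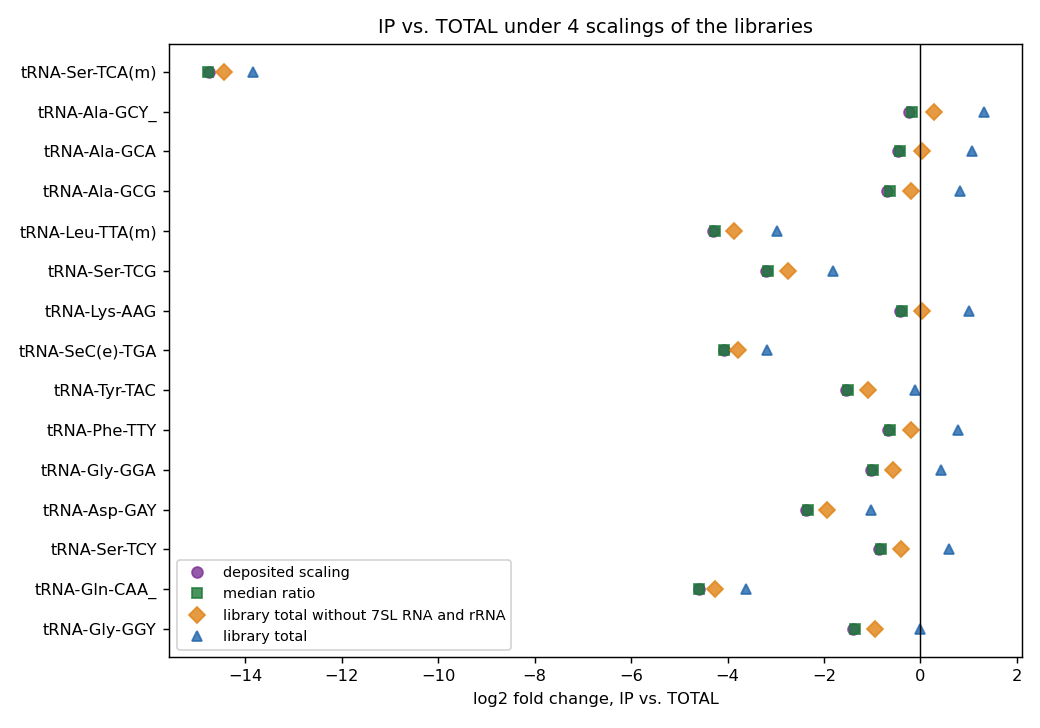
log2 fold change of IP against TOTAL (horizontal axis) for the 15 tested tRNA names under 4 scalings of the libraries, each in its own symbol. The deposited and median ratio scalings almost coincide, and scaling to the library total moves all points to the right, the alanine names to 0.81 to 1.31, while tRNA-Ser-TCA(m), tRNA-Gln-CAA_, tRNA-Leu-TTA(m), tRNA-SeC(e)-TGA, tRNA-Ser-TCG and tRNA-Asp-GAY stay below -1.

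Summed over all 58 names, tRNA reads were 1.02%, 0.349% and 0.36% of reads on repeat names in TOTAL 1, 2 and 3, 0.329%, 0.143% and 0.0411% in INPUT, 0.413%, 0.249% and 0.0292% in BO, and 0.0455%, 0.0463% and 0.0533% in IP. The log2 ratio of the summed normalized counts of IP to those of TOTAL was -5.01 with tRNA-Ser-TCA(m) and -0.80 without it. The ratio was -2.46 against BO and -2.36 against INPUT with that name, and -0.53 and -0.56 without it. The combined SD of the log2 sums of both groups, with the name, was 0.57 for TOTAL, 1.45 for BO and 1.5 for INPUT. Without INPUT 1 the ratio to INPUT moved to -1.48, and without BO 1 that to BO to -1.84. Scaled to the library total, the 57 names other than tRNA-Ser-TCA(m) gave ratios of 0.66 against TOTAL, -0.01 against INPUT and -0.12 against BO, so that their direction against TOTAL turned. Much of the difference between groups in summed tRNA reads was thus in 1 name.

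By amino acid, 15 of the 21 classes had every IP library below every TOTAL library: alanine, arginine, aspartate, glutamine, glutamate, glycine, histidine, isoleucine, leucine, methionine, proline, selenocysteine, serine, threonine and tyrosine. Against INPUT, alanine, serine and threonine were below without overlap, and against BO alanine, glutamate and methionine were below and histidine was above. For single names, the share without overlap was 22% below TOTAL, 26.4% below INPUT, and 30.5% below and 16.5% above BO. Scaling to the library total moved the median log2 fold change of all names to 1.49 against TOTAL, 0.47 against INPUT and 0.36 against BO. The share of single names without overlap is not given for that scaling, so the classes listed next are not read as a result. Under it, 3 classes were below TOTAL without overlap (histidine, leucine and serine) and 2 above (alanine and cysteine), and 1 was below INPUT (threonine). Against BO 1 was below (methionine) and 4 above (cysteine, glutamine, histidine and valine). These sums include names too low to test, and no p was computed for them.

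Serine without tRNA-Ser-TCA(m) summed to 81.8 ± 28.3 in TOTAL, 52.5 ± 26.4 in INPUT, 7.06 ± 3.07 in BO and 22.9 ± 3.15 in IP (mean ± SD, n = 3), so that IP lay above all BO libraries and below all INPUT and TOTAL libraries. Histidine, with 2 names, had 24.8, 28.5 and 27.7 in TOTAL, 20.7, 7.34 and 1.51 in INPUT, 0.62, 0 and 0 in BO and 1.47, 5.12 and 5.85 in IP, on 1 read in BO and 11 in IP. Threonine, with 4 names, had means of 17.5 ± 3.6 in TOTAL and 17.4 ± 3.17 in INPUT against 3.75 ± 2.18 in BO and 3.93 ± 2.47 in IP. The IP libraries of serine and histidine did not overlap those of BO, while those of threonine did, and the histidine and threonine sums rest on names too low to test.

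Leucine without tRNA-Leu-TTA(m), 6 names, had 131.2, 29.6 and 23.4 in TOTAL, 36.7, 5.71 and 10.6 in INPUT, 10.6, 9.1 and 4.81 in BO and 11.8, 10.2 and 14.6 in IP. IP was below all TOTAL libraries and overlapped INPUT and BO. Proline, with 3 names, was 13.3 ± 1.43 in TOTAL, 6.8 ± 3.54 in INPUT, 0.64 ± 0.65 in BO and 1.77 ± 1.94 in IP. Cysteine (12 ± 6.92 in TOTAL, 8.26 ± 1.3 in IP) and tryptophan (3.66 ± 2.19 and 4.19 ± 5.3) overlapped between TOTAL and IP.

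**Figure D5:**
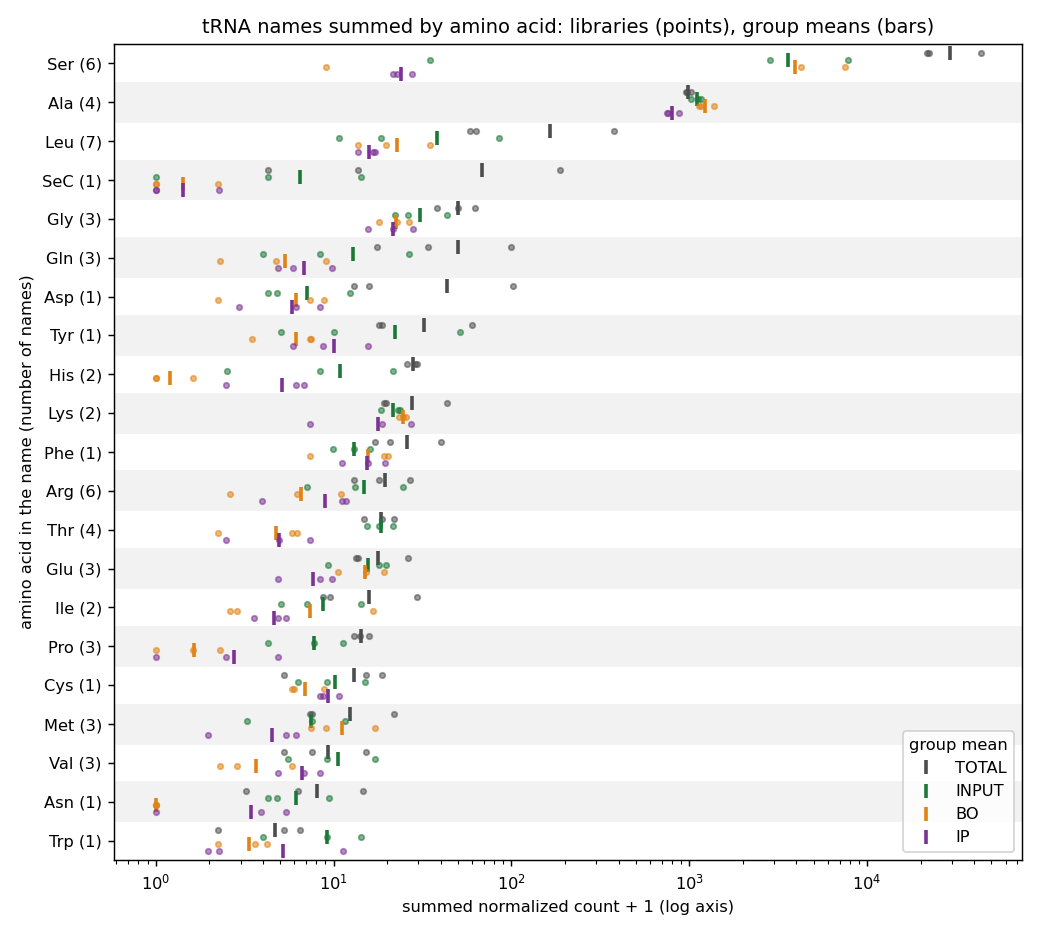
Summed normalized count plus 1 (horizontal log axis) of the tRNA names of each amino acid, with the number of names in brackets, points for the 3 libraries of each group and a bar for the group mean. The serine mean is 29298 in TOTAL and 22.9 in IP, the alanine mean 984.3 and 797.0, and the other classes have TOTAL means of 3.66 to 164.8.

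The 43 names that were not tested held 958 reads in TOTAL, 521 in INPUT, 223 in BO and 205 in IP, and 42, 40, 32 and 38 of them had at least 1 read. Their sums were 381.8, 191.1 and 177.6 in TOTAL, 240.6, 125.7 and 83.9 in INPUT, 69.8, 87.1 and 70.5 in BO and 89.7, 74.2 and 83.9 in IP. On this scaling BO and IP were lower than TOTAL and overlapped each other. As shares of reads, IP held 0.0044%, 0.00378% and 0.00429% on these names and TOTAL 0.00847%, 0.00289% and 0.0027%, so that each IP library exceeded TOTAL 2 and TOTAL 3. With no filter on the mean, limma called 5 of these 43 names in IP against BO, 2 higher and 3 lower, where 4.38% of all names were called higher and 3.73% lower. The higher ones were tRNA-His-CAY_ (0.62, 0 and 0 in BO, 1.47, 5.12 and 5.85 in IP; adjusted p = 0.0434) and tRNA-Ser-AGY (0, 0 and 0 in BO, 4.41, 6.4 and 1.95 in IP; adjusted p = 0.0218). With up to 3 reads per BO library allowed for, the mean of tRNA-Ser-AGY was at least 1.21-fold higher in IP. The lower ones were tRNA-Met (5.61, 6.5 and 9.62 in BO, 0, 0 and 0.98 in IP; adjusted p = 7.05e-04), tRNA-Glu-GAG (11.8, 9.11 and 6.41 in BO, 2.94, 1.28 and 1.95 in IP; adjusted p = 0.0341) and tRNA-Lys-AAA (log2 fold change -2.20, SE 0.74, adjusted p = 0.0434). All rest on few reads, such as 20 in BO and 1 in IP for tRNA-Met. Against TOTAL, 7 of the 43 were called lower in IP (tRNA-His-CAY_, tRNA-Ile-ATA, tRNA-Leu-TTG, tRNA-Met, tRNA-Pro-CCA, tRNA-Thr-ACG and tRNA-Thr-ACY) and 0 higher, beside 3.14% and 2.42% of all names. Against INPUT, 3 were called lower in IP (tRNA-Met, tRNA-Pro-CCA and tRNA-Thr-ACG_) and 0 higher, beside 2.75% and 2.49%, and 6 were lower in BO than in INPUT and 0 higher, beside 3.21% and 2.49%. These names were chosen after their values were seen.

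The first replicate of TOTAL and of INPUT stood apart from the others for tRNA names. TOTAL 1 was the highest TOTAL library for 11 of the 15 tested names (46.7% of all names) and INPUT 1 the highest INPUT library for 13 (46%). The median ratio of replicate 1 to the mean of replicates 2 and 3 was 2.16 in TOTAL and 2.17 in INPUT for the tRNA names, and 1.03 over all names in both. In TOTAL it was 7.48 for tRNA-Asp-GAY, 7.26 for tRNA-Leu-TTA(m) and 23.1 for tRNA-SeC(e)-TGA, but 0.931 for tRNA-Ala-GCY_ and 0.997 for tRNA-Ser-TCY. The 15 other small RNA names tested, of spliceosomal and nucleolar U RNAs, BC1, 4.5S, 5S, 7SK and 7SL RNAs, had median ratios of 2.26 in TOTAL and 2.05 in INPUT. For 11 names of SINEs that descend from tRNAs or hold a tRNA-derived part, the medians were 1.01 and 0.998. What part the first replicates have in the differences from TOTAL and INPUT was not tested beyond alternative fits. These left each library out or took the replicate number as a block.

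The other small RNA names were measured in the same way. Of those 15, limma called 11 lower in IP than in TOTAL (3.47% of all tested names; median log2 fold change -3.22), 8 lower in IP than in INPUT (2.88%; -2.81) and 9 lower in BO than in INPUT (2.8%; -2.52). It called 2 higher in IP than in BO (5.08%; -0.03) and 2 lower in INPUT than in TOTAL (0.339%; -0.57). Of 11 names of SINEs that descend from tRNAs or hold a tRNA-derived part (B2, B3, ID and MIR names), 0 were called lower in IP than in TOTAL (median -0.20) or in INPUT (-0.29), 1 was called higher in IP than in BO (-0.23) and 1 lower in INPUT than in TOTAL (0.18). No test of the difference between these sets was made.

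For genes that act on tRNAs, only the authors' group means were used here, so values are given without error. Of 20 genes for cytosolic aminoacyl-tRNA synthetases, the enzymes that load amino acids onto tRNAs, 20 had a log2 ratio above 1 for IP over BO, where 43.9% of all genes did, with a median of 2.00 beside 0.81. Over INPUT 6 were above 1 (20.5% of genes, median 0.92 beside 0.15), and over TOTAL 6 were above 1 (20.4% of genes) and 1 below -1 (26.2%), with a median of 0.74 beside -0.03. The list chosen also held 3 scaffold proteins of the multisynthetase complex, *Aimp1*, *Aimp2* and *Eef1e1*, which load no amino acid, and with them 23 of 23 were above 1 over BO. The gene of alanyl-tRNA synthetase, *Aars*, had authors' means of 3018 in TOTAL and 8376 in IP (log2 ratio 1.47), and that of seryl-tRNA synthetase, *Sars*, 1809 and 789.7 (-1.19). Of 38 genes for RNA polymerase III and tRNA processing, 12 were above 1 and 6 below -1 for IP over TOTAL (median 0.46). In the same comparison with TOTAL, 15 of 15 tested tRNA names lay below 0 under the deposited scaling, and the gene and repeat tables were scaled separately, so the values were not compared.

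The number of annotated genes per amino acid gave no simple order of these summed counts, which do not tell whole tRNAs from fragments. Of 430 tRNA genes in RefSeq, 22 are mitochondrial, and 13 read the codons of tRNA-Ala-GCY_, 24 that of tRNA-Lys-AAG, 8 those of tRNA-Ser-TCY and 3 that of tRNA-Ser-TCG. Across 20 amino acids, which share the same libraries, Spearman's correlation of gene number with the summed mean of the names without the (m) mark was 0.29 in TOTAL and 0.50 in IP.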

How the data were processed

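Per the labels and the methods of the study, RNA was sequenced with TruSeq Stranded Total RNA libraries after rRNA depletion; the authors aligned reads with STAR 2.6.0c to mm10, kept reads with many matches, assigned them to repeat copies with Telescope 1.0.3, summed copies per repeat name and scaled each library to its 75th percentile with EBSeq 1.26.0. The deposited values (normalized counts, a scaled signal) were whole multiples of 1 step per library for 100% of values within 0.1 read, so reads were recovered. Because Telescope moves ambiguous reads between copies, names with alike copies can trade reads.

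Here log2(normalized count + 1) of all 12 libraries was fitted with limma 3.58.1 (R 4.3.3; lmFit, eBayes with trend) and adjusted by Benjamini-Hochberg over 1180 names with a mean of at least 10. edgeR 4.0.16 on recovered reads, tested as an alternative, called 64 of 1180 names as higher in IP than in BO and 35 as lower. For IP against TOTAL it called 36 names higher and 38 lower, of which 0 and 6 were tRNA names. Counting intervals are exact at 95%. Text names tRNA names that were called, bear the (m) mark or are the most abundant tested name of an amino acid. Members and lists were chosen with earlier results of these data known.

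Same-numbered TOTAL and INPUT libraries deviated together in every pair (correlations over 0.1), which held for no other pair of groups. The DESeq2 1.24.0 gene tables, deposited by the authors, hold fold changes and p-values that were not used; only their group means, which are normalized counts from the authors, were. They hold no tRNA copy, so single copies were not analysed here. The limma procedure was tested on simulated data for IP against BO only, with the same spread set for every name. That simulation does not bear on names with a wide spread between libraries, such as tRNA-Ser-TCA(m). The sequences of 3 further tRNA genes are not reported here.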

Additional observations from a re-analysis of the deposited data

How the results depend on the processing

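Scaling, filter and pseudocount decided several counts of called tRNA names. Higher in IP than in BO, 1 name became 0 with a pseudocount of 10 or a mean of at least 100 (which drops most tRNA names), and 3 without a filter. Lower in IP than in BO, 0 became 1 with a pseudocount of 0.1, a mean of at least 100, the library total, the total without 7SL RNA and rRNA, or edgeR, 2 with the compared groups alone and 3 without a filter. Lower in IP than in INPUT, 2 became 1 with a pseudocount of 10, the median ratio or the total without 7SL RNA and rRNA, 0 with a mean of at least 100 and 6 without a filter. Against TOTAL, the library total gave 2 names higher in IP, with a median log2 fold change of 1.49 over all names. No filter gave 12 lower, beside 3.14% of all names, and a mean of at least 100 gave 1 lower. Counts can hide changes of member: tRNA-SeC(e)-TGA lost its call against TOTAL with either pseudocount and with the compared groups alone, and tRNA-Ser-TCG its call against INPUT with a pseudocount of 0.1. For INPUT against TOTAL, the library total gave 3 higher and 1 lower, with a median log2 fold change of 1.03 over all names. The share of all names called with the library total is not given, so the counts under that scaling are not read as results about tRNA names. For BO against INPUT, 2 lower became 9 without a filter and 0 with a mean of at least 100. Leaving out 1 library each gave 0 to 1 lower for IP against BO and 1 to 4 lower for IP against INPUT, the latter 4 without INPUT 3.

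The summed log2 ratios without tRNA-Ser-TCA(m), an alternative chosen after seeing the data, were -0.53 for IP against BO, -0.56 against INPUT, -0.80 against TOTAL and -0.25 for INPUT against TOTAL. The library total moved the ratio of IP to TOTAL to -3.57. The library total without that name, also chosen after seeing the data, gave -0.12, -0.01, 0.66 and 0.67 in the same order. Of 29 differences of single names with an unadjusted p under 0.05, 7 values under another scaling had the opposite sign, all in IP. With the library total these were 1.31 for tRNA-Ala-GCY_, 1.07 for tRNA-Ala-GCA, 0.81 for tRNA-Ala-GCG and 0.59 for tRNA-Ser-TCY against TOTAL, and 0.13 for tRNA-Ala-GCY_ against INPUT. With the total without 7SL RNA and rRNA they were 0.27 for tRNA-Ala-GCY_ and 0.03 for tRNA-Ala-GCA against TOTAL. The cause was not tested.

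Of 18 pairs of libraries with the same number in different groups, 8 correlated over 0.1 (range -0.14 to 0.63). For TOTAL and INPUT, 5 of 6 libraries correlated best with their own number, and 4 of 6 for INPUT and BO and for BO and IP. The number was 3 for TOTAL and BO, 2 for TOTAL and IP and 0 for INPUT and IP. With the replicate number as a block, 1 name was called lower in IP than in BO (tRNA-Ser-TCA(m), -8.77, adjusted p = 0.0167 in limma), 4 lower in IP than in INPUT (tRNA-Ser-TCA(m) at 0.0288 among them) and 3 lower in BO than in INPUT, and the other counts stayed as reported.

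Depth limits the low names most: 1 read is 0.619 to 1.6 normalized counts, so the values of the 43 untested names rest on few reads.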
